A study of Homo sapiens with 24 samples.

Results

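Matrix metalloproteinases (MMPs), ADAMTS proteases and the tissue inhibitors of metalloproteinases (TIMPs) were examined as a set of 44 genes, of 20162 protein-coding genes in all. The genes were chosen by name, with no measured value in the rule, and comprise 22 MMPs, 19 ADAMTS genes and 3 TIMPs. For each gene, the base pairs covered by peaks of H3K4me3, H3K27ac and H3K27me3 were measured in a window reaching 5 kb to each side of every annotated transcription start site (TSS), in hg19 coordinates with GENCODE gene models. All 44 were found in the annotation, and their windows spanned 10001 to 52760 bp with a median of 20002 bp (19312 bp over all coding genes).

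Chromatin immunoprecipitation followed by sequencing had been performed in PANC-1, an established human cell line derived from a pancreatic ductal carcinoma, in 18 libraries with deposited peak lists, 2 per group and mark. All cells were transfected with an siRNA by lipofection, either siControl or siPHF13 against PHF13, a reader of H3K4me3. The siControl group received no TGFβ. Both siControl+TGFβ and siPHF13+TGFβ cells were cultured in TGFβ at 10 ng/ml for 48 h, a cytokine treatment that induces epithelial-mesenchymal transition (EMT). The study asked whether PHF13 is needed for the chromatin response to TGFβ. Everything comes from 1 cell line and a transient knockdown whose extent these files do not measure, and siPHF13 cells without TGFβ were not analysed here. Both comparisons below share the siControl+TGFβ libraries.

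Some facts of the libraries bear on every value. Pairs of values are given as replicate 1 and then replicate 2. The labels do not say whether replicates came from separate cultures, so spread between them may be technical, and depth is unknown because peak lists carry no read numbers. In siPHF13+TGFβ replicate 1 the lists were the shortest for every mark, with 6004 H3K27ac peaks against 19413 to 36104 in the other 5 lists. Individual peaks in the siControl+TGFβ and siPHF13+TGFβ lists are named with abbreviations that do not match the labels. Those in the siPHF13+TGFβ lists are named NCT, which the study uses for control cells with TGFβ. Whether these lists were exchanged could not be settled, and groups were taken from the labels. Every direction in both comparisons thus rests on the labels being correct, since exchanging these lists would replace the siControl+TGFβ libraries of each. Of the epithelial markers, KRT8, KRT18, KRT19 and EPCAM had H3K4me3 in all 6 lists and H3K27ac in at least 5, and CDH1 had H3K4me3 in all 6, H3K27me3 in 5 and H3K27ac in 0. SYP, a neuroendocrine marker, had H3K27ac in 5 lists, while PTPRC, CD3E, CDH5 and ALB of blood, endothelial and liver cells carried H3K27ac in 0 lists. In bulk chromatin, fewer cells with a mark and less of the mark per cell cannot be told apart.

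MMPs and ADAMTS enzymes are zinc proteases that cut collagens, proteoglycans and other proteins of the extracellular matrix, most of them secreted and a few anchored in the membrane, and TIMPs bind and block them. Tumour cells and stromal cells use them to remodel matrix during invasion, and several MMP genes are classical targets of AP-1 factors, which bind TGANTCA-type sites. H3K4me3 sits at the TSS of CpG-rich genes, H3K27ac at active promoters and enhancers, and H3K27me3 is laid down by Polycomb complexes over repressed genes.

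The promoters differed in sequence along with the marks. Of the 250 bases before the canonical TSS, the 27 members with H3K4me3 in all 6 lists held a median of 22 CpG dinucleotides and the 14 members with H3K4me3 in no list a median of 3, the same medians as over all coding genes with H3K4me3 in all 6 lists and in none. MMP8 is shown as a promoter with no CpG and no H3K4me3 (chr11:102595686-102595935, minus strand), from GRCh37 and 5′ to 3′ on the strand of the gene.
MMP8: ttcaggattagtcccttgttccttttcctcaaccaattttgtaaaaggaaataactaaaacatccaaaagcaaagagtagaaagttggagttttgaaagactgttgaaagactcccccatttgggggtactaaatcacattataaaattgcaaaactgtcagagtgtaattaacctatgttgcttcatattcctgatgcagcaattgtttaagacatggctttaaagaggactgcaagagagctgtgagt

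The AP-1 motif TGANTCA, which reads the same on both strands, was found in the same 250 bases of 10 of 44 members (22.7%), against 4.7% of all 19862 promoters searched. Among the 14 members without H3K4me3 it was in 7, against 8.93% of all coding genes without H3K4me3. The 10 were MMP1, MMP3, MMP7, MMP9, MMP10, MMP12, MMP13, MMP19, MMP20 and ADAMTS12, and in 8 of them, all but MMP20 and MMP13, the motif began at position -67 to -84 relative to the TSS. Of these, MMP1, MMP3, MMP7, MMP10, MMP12, MMP13 and MMP20 lie in a single gene cluster on chromosome 11. Most of the matches thus come from neighbouring genes of the same family, which may not be independent cases. A match of letters is a description of the sequence and not of binding. The promoter of the matrilysin MMP7 (chr11:102401479-102401728, minus strand), which held the motif together with H3K4me3 in all 6 lists, is shown with the motif in capitals.
MMP7: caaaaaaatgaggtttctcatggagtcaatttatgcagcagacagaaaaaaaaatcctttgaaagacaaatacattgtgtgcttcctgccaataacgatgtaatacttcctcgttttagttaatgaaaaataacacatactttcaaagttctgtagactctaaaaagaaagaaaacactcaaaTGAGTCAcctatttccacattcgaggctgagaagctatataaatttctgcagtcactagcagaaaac

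For 6 further members the motif is shown with 10 bases to each side, to display how its centre base and flanks vary. They lie at chr11:102651410-102651436, chr11:102745774-102745800, chr11:102826496-102826522, chr12:56236779-56236805, chr11:102496159-102496185 and chr5:33892163-33892189, all on the minus strand, at positions -67, -78, -51, -75, -112 and -84.
MMP10: aacacatgcaTGAATCAtactgttggt
MMP12: atatcaactaTGAGTCActcataggat
MMP13: ccataagtgaTGACTCAccattgcagg
MMP19: atctcttggcTGAGTCAcctccctctg
MMP20: gtttgagacaTGAATCAtccttgctcg
ADAMTS12: cactgtcagcTGAATCActcccctttt

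**Figure D1:**
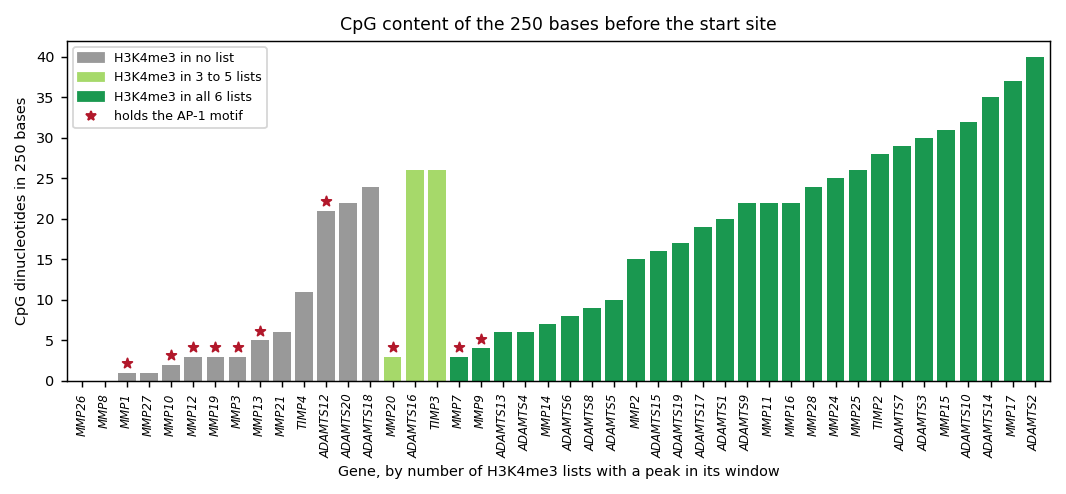
CpG dinucleotides in the 250 bases before the TSS (vertical axis) of each of the 44 genes, coloured by the number of H3K4me3 lists with a peak in the window of the gene, with a star where the AP-1 motif TGANTCA occurs. Most genes without H3K4me3 hold few CpG, with a median of 3 against 22 for genes with H3K4me3 in all 6 lists, and 9 of the 10 starred genes hold at most 5.

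Across the set, H3K4me3 was present in at least 1 list at 30 members (68.2%, against 78.7% of all coding genes) and in all 6 lists at 27. H3K27ac was scarce. It was present in at least 1 list at 17 members (38.6%, against 65.8%) and in all 6 lists at MMP17 alone (2.27%, against 21.7%). H3K27me3 was widespread, in at least 1 list at 36 members (81.8%, against 48.8%) and in all 6 at 20 (45.5%, against 23.2%). In each library the H3K27me3 peaks covered 5.27% to 22.5% of the members' windows, against 2.57% to 12% of all windows. These shares are a description of the list, with no test.

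Both H3K4me3 and H3K27me3, the pair of marks seen at promoters held in a poised state, were found in at least 4 lists each at 22 of the 44 members, against 23.9% of all coding genes. These were MMP2, MMP9, MMP17, MMP24, MMP25, MMP28, TIMP3 and 15 of the 19 ADAMTS genes. TIMP4 and ADAMTS20 had none of the 3 marks in any list.

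**Figure D2:**
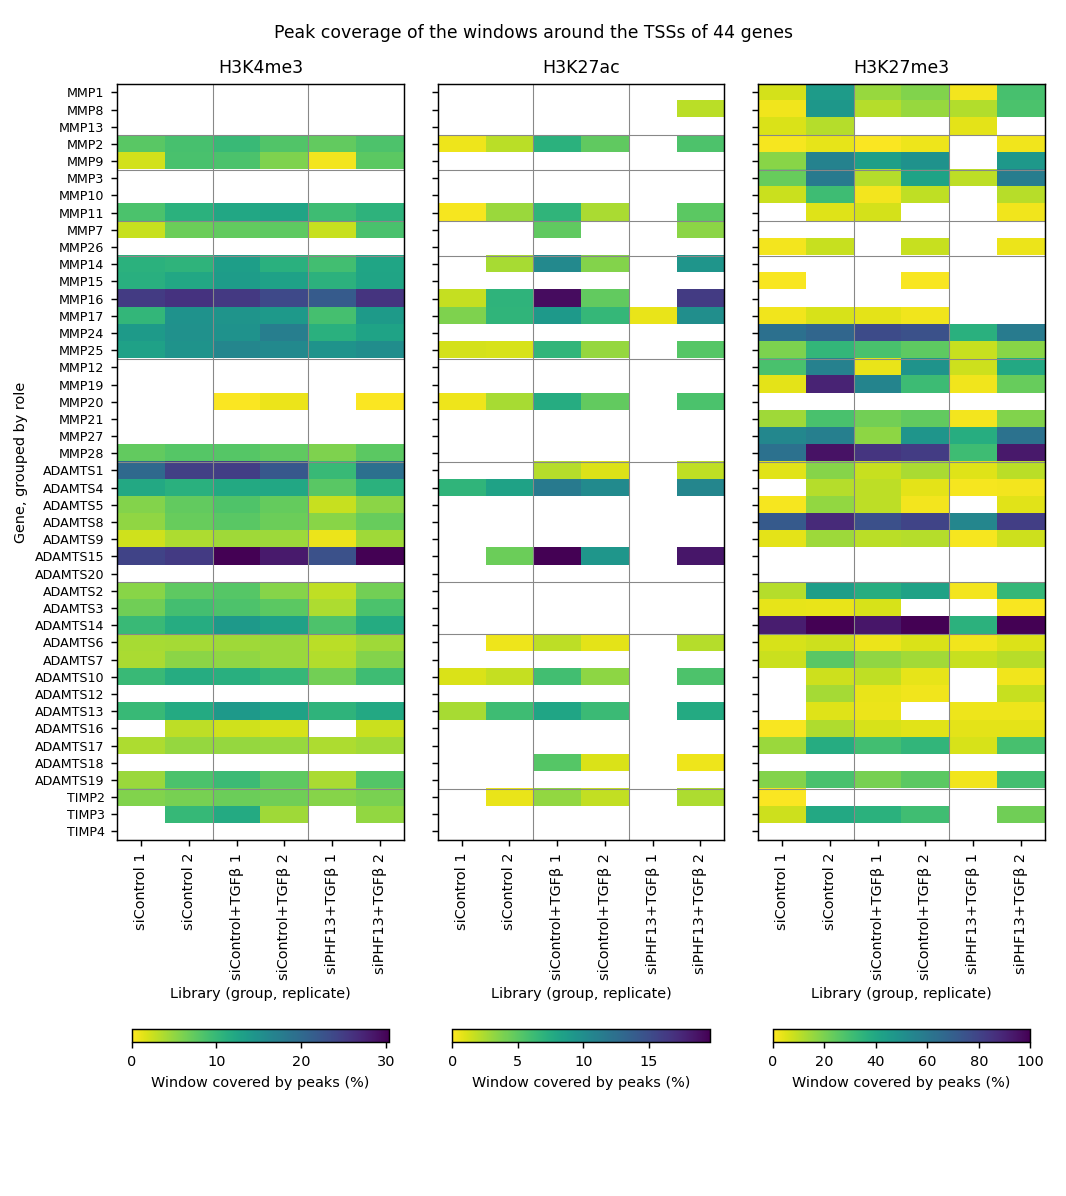
Share of each window covered by peaks (percent, colour scale below each panel, white for no peak) for the 44 genes, by mark and library, with rows grouped by role as collagenases, gelatinases, stromelysins, matrilysins, membrane-type MMPs, other MMPs, proteoglycanases, procollagen N-proteinases, other ADAMTS and TIMPs. H3K27ac is found at 17 genes and is missing from all but MMP17 in siPHF13+TGFβ replicate 1, whereas H3K27me3 reaches 36 genes.

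The collagenases MMP1, MMP8 and MMP13, which cleave fibrillar collagen, had no H3K4me3 in any list. H3K27me3 covered 1005 and 6895 bp of the MMP1 window in the siControl pair, 2381 and 2925 bp in the siControl+TGFβ pair, and 257 and 4440 bp in the siPHF13+TGFβ pair. At MMP8 it covered 271 and 5755 bp, then 1355 and 1886 bp, then 1420 and 3476 bp in the same order. Values within the siControl and siPHF13+TGFβ pairs lay far apart, those of the siControl+TGFβ pair closer together, and the groups overlapped. At MMP13 it covered 580 and 1128 bp in the siControl pair, 0 bp in both siControl+TGFβ libraries, and 403 and 0 bp in the siPHF13+TGFβ pair, so that its siControl libraries stood above the others. H3K27ac at MMP8 was limited to 250 bp in siPHF13+TGFβ replicate 2.

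The gelatinases MMP2 and MMP9 degrade denatured collagen and basement membrane collagen, and their chromatin differed. MMP2 carried H3K4me3 in every library, over 3084 and 3516 bp in the siControl pair, 3899 and 3307 bp in the siControl+TGFβ pair, and 2919 and 3388 bp in the siPHF13+TGFβ pair. H3K27ac at MMP2 covered 209 and 797 bp in the siControl pair, 2836 and 1921 bp in the siControl+TGFβ pair, and 0 and 2174 bp in the siPHF13+TGFβ pair. Both siControl+TGFβ libraries were above both siControl libraries. Of the siPHF13+TGFβ libraries, replicate 1 was below both siControl libraries and replicate 2 lay between the siControl+TGFβ libraries.

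The MMP2 window also holds the TSS of LPCAT2, a phospholipid acyltransferase gene downstream. The H3K27ac region on the MMP2 TSS itself (chr16:55513155-55514513, reaching into the gene) covered 209 and 0 bp in the siControl pair, 1359 and 664 bp in the siControl+TGFβ pair, and 0 and 891 bp in the siPHF13+TGFβ pair. The region on the LPCAT2 TSS (chr16:55542878-55543884) covered 0 and 587 bp, then 1007 and 666 bp, then 0 and 989 bp. Both regions were thus wider in siControl+TGFβ than in siControl. H3K27me3 at MMP2 was narrow, with 514 and 1448 bp, then 163 and 970 bp, then 0 and 812 bp.

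MMP9 had no H3K27ac in any list and a broad H3K27me3 domain. H3K27me3 covered 1788 and 5570 bp of its window in the siControl pair, 4340 and 4904 bp in the siControl+TGFβ pair, and 0 and 4675 bp in the siPHF13+TGFβ pair. The last group holds the lowest value and a value within the others. H3K4me3 at MMP9 covered 210 and 872 bp, then 862 and 594 bp, then 54 and 768 bp, and its regions lay over exons of the gene, the nearest 1510 bp from the TSS, not on the TSS.

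Of the stromelysins, which have broad matrix substrates, MMP3 and MMP10 lay in H3K27me3 and had no H3K4me3 or H3K27ac. At MMP3 the H3K27me3 values were 3452 and 8818 bp in the siControl pair, 1662 and 6230 bp in the siControl+TGFβ pair, and 1476 and 8602 bp in the siPHF13+TGFβ pair, with replicate 2 the higher in each group. At MMP10 they were 812 and 3095 bp, then 180 and 959 bp, then 0 and 1061 bp.

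MMP11, the stromelysin that lies apart on chromosome 22, had H3K4me3 over 2038 and 2582 bp in the siControl pair, 2881 and 2981 bp in the siControl+TGFβ pair, and 2230 and 2530 bp in the siPHF13+TGFβ pair. Both siControl+TGFβ libraries were above the 4 others. Its H3K27ac, 61 and 693 bp, then 1604 and 583 bp, then 0 and 1165 bp, came from peaks on the TSSs of its neighbours: CHCHD10, where an annotated MMP11 transcript also starts, and SMARCB1. On the canonical MMP11 TSS there was H3K4me3 in all 6 lists and no H3K27ac.

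Both matrilysins are short MMPs without the hemopexin domain. MMP7 had H3K4me3 on its TSS in all 6 lists, over 254 and 686 bp in the siControl pair, 726 and 751 bp in the siControl+TGFβ pair, and 253 and 875 bp in the siPHF13+TGFβ pair. Its H3K27ac was found in 2 lists, with 481 bp in siControl+TGFβ replicate 1 and 343 bp in siPHF13+TGFβ replicate 2. MMP26 had H3K27me3 alone, in 4 lists and over at most 1700 bp.

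The 6 membrane-type enzymes had H3K4me3 in all 6 lists at every member, as did the gelatinases and the procollagen N-proteinases, and 4 of them had H3K27ac in at least 4 lists. MMP14 (MT1-MMP) activates pro-MMP2 on the cell surface together with TIMP2. Its H3K27ac lay on the TSS (chr14:23305773-23307370) and covered 0 and 390 bp in the siControl pair, 1563 and 554 bp in the siControl+TGFβ pair, and 0 and 1412 bp in the siPHF13+TGFβ pair. H3K4me3 at MMP14 covered 1658 and 1598 bp, then 2016 and 1669 bp, then 1384 and 1883 bp. For both marks the siControl+TGFβ libraries stood above the siControl libraries, and no H3K27me3 was found in any of the 6 lists.

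MMP16 (MT3-MMP) had the same active pattern without H3K27me3. H3K4me3 covered 2347 to 2806 bp of its window in the 6 libraries, and H3K27ac covered 189 and 741 bp in the siControl pair, 2055 and 512 bp in the siControl+TGFβ pair, and 0 and 1753 bp in the siPHF13+TGFβ pair. The groups overlapped for both marks.

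MMP17 (MT4-MMP), a glycosylphosphatidylinositol-anchored enzyme, was the only member with H3K27ac in all 6 lists. The mark covered 1004 and 1796 bp in the siControl pair, 2415 and 1739 bp in the siControl+TGFβ pair, and 166 and 2642 bp in the siPHF13+TGFβ pair. Most of it lay in an intronic region (chr12:132314495-132316336) that begins 1455 bp downstream of the TSS. H3K4me3 covered 2744 and 3964 bp, then 3889 and 3721 bp, then 2381 and 3670 bp. H3K27me3 covered 540 and 1616 bp in the siControl pair, 1096 and 551 bp in the siControl+TGFβ pair, and 0 bp in both siPHF13+TGFβ libraries. MMP17 was thus the only member with H3K27me3 in the window in both libraries of siControl+TGFβ and in neither of siPHF13+TGFβ. The siControl+TGFβ libraries shared no site there. Replicate 1 had peaks at chr12:132309575-132310095 and chr12:132311454-132312028, and replicate 2 had its peak within chr12:132307803-132308747, all upstream of the TSS.

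MMP25 (MT6-MMP), the other lipid-anchored enzyme, had all 3 marks. H3K27ac covered 269 and 251 bp in the siControl pair, 1393 and 649 bp in the siControl+TGFβ pair, and 0 and 1070 bp in the siPHF13+TGFβ pair. H3K4me3 covered 2691 and 3078 bp, then 3421 and 3319 bp, then 3056 and 3207 bp. H3K27me3 covered 4052 and 7026 bp, then 5943 and 5124 bp, then 1732 and 3659 bp. Its H3K27ac was mainly in a region (chr16:3108568-3110019) over an exon of MMP25 and the TSS of the antisense RNA MMP25-AS1.

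MMP15 and MMP24 had H3K4me3 without H3K27ac. H3K4me3 covered 2253 and 2446 bp of the MMP15 window in the siControl pair, 2722 and 2594 bp in the siControl+TGFβ pair, and 2172 and 2532 bp in the siPHF13+TGFβ pair, with both siControl+TGFβ libraries above the other 4. At MMP24 it covered 1382 and 1507 bp, then 1493 and 1745 bp, then 1106 and 1273 bp. H3K27me3 filled most of the MMP24 window, with 6314 and 6716 bp of 10001 bp in the siControl pair, 7701 and 7524 bp in the siControl+TGFβ pair, and 3664 and 5831 bp in the siPHF13+TGFβ pair. There the siControl+TGFβ libraries were the highest and the siPHF13+TGFβ libraries the lowest.

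Of the remaining MMPs, the macrophage elastase MMP12, MMP19, MMP21 and MMP27 had H3K27me3 in all 6 lists with no H3K4me3 or H3K27ac. MMP28 (epilysin) combined H3K4me3, over 1764 to 2414 bp, with wide H3K27me3 coverage, 18938 and 28649 bp in the siControl pair, 25518 and 24774 bp in the siControl+TGFβ pair, and 9377 and 28065 bp in the siPHF13+TGFβ pair. At MMP19 the H3K27me3 values ranged from 282 to 11635 bp, so that siControl held nearly the whole range (542 and 11635 bp).

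The ADAMTS proteoglycanases cleave aggrecan, versican and related matrix proteoglycans. ADAMTS1 had wide H3K4me3, 2995 and 3679 bp in the siControl pair, 3705 and 3297 bp in the siControl+TGFβ pair, and 1479 and 2866 bp in the siPHF13+TGFβ pair, where both siPHF13+TGFβ libraries were below both siControl+TGFβ libraries. H3K27ac at ADAMTS1 was found at 0 bp in both siControl libraries, 329 and 153 bp in the siControl+TGFβ pair, and 0 and 279 bp in the siPHF13+TGFβ pair. ADAMTS5, its neighbour 121679 bp away on chromosome 21, had no H3K27ac and narrower H3K4me3, over 654 and 843 bp, then 963 and 832 bp, then 291 and 610 bp. H3K27me3 was present at both, at 645 to 2725 bp for ADAMTS1 and 0 to 1858 bp for ADAMTS5.

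ADAMTS9 had H3K4me3 over 1182 and 1973 bp in the siControl pair, 2296 and 2347 bp in the siControl+TGFβ pair, and 458 and 2309 bp in the siPHF13+TGFβ pair. H3K27me3 there covered 2248 and 7658 bp, then 5388 and 5876 bp, then 824 and 3962 bp. It had no H3K27ac. All H3K4me3 and H3K27ac of the ADAMTS4 window lay in 1 region each, at least 2347 bp from any ADAMTS4 TSS.

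ADAMTS8 and ADAMTS15 lie side by side on chromosome 11, with TSSs 20036 bp apart, and their chromatin was opposite. H3K27me3 covered 14303 and 17629 bp of the 20002 bp ADAMTS8 window in the siControl pair, 15140 and 15896 bp in the siControl+TGFβ pair, and 10835 and 16286 bp in the siPHF13+TGFβ pair, with no H3K27ac in any list. The ADAMTS15 window had no H3K27me3 in any list, and H3K4me3 over 2435 and 2523 bp in the siControl pair, 3042 and 2827 bp in the siControl+TGFβ pair, and 2284 and 3032 bp in the siPHF13+TGFβ pair. H3K27ac at ADAMTS15 covered 0 and 440 bp, then 1963 and 932 bp, then 0 and 1846 bp.

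The H3K27me3 domain over ADAMTS8 ended at nearly the same place in every library, between 17.4 and 17.8 kb before the ADAMTS15 TSS. Between its end and ADAMTS15, a site (chr11:130304377-130305621) carried H3K27ac in 5 lists, over 372 and 544 bp in the siControl pair, 1238 and 693 bp in the siControl+TGFβ pair, and 0 and 1224 bp in the siPHF13+TGFβ pair, and H3K4me3 in all 6. ADAMTS8 itself kept H3K4me3 on its TSS inside the domain, over 1001 to 1550 bp in the 6 libraries.

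**Figure D3:**
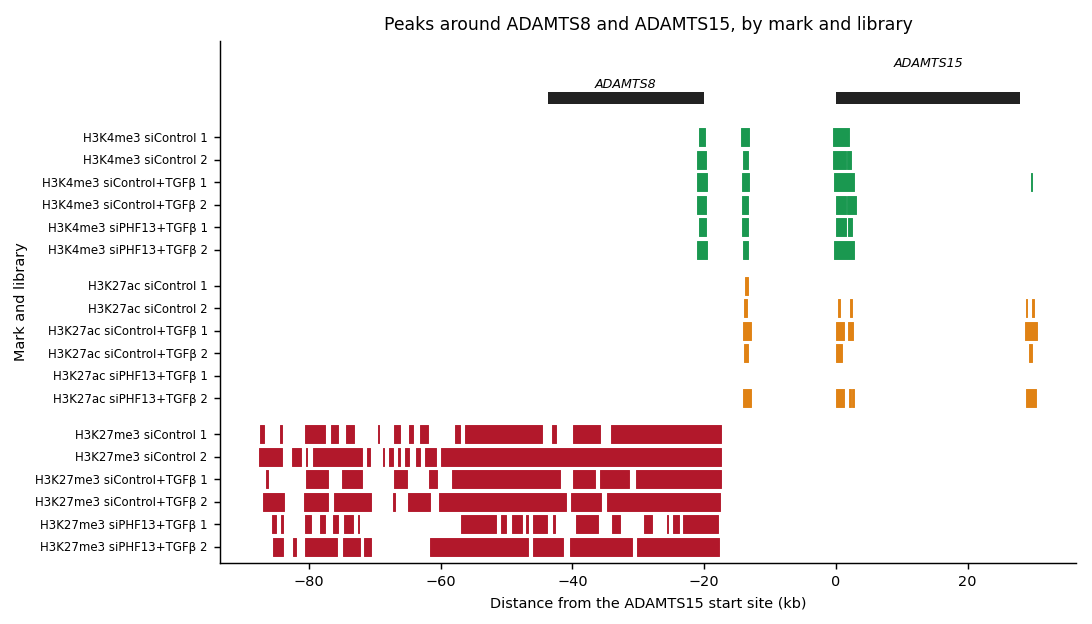
Peaks of the 3 marks in each of the 18 libraries by distance from the ADAMTS15 TSS (kb), with the gene bodies of ADAMTS8 and ADAMTS15 as black bars and each coloured bar standing for 1 peak. H3K27me3 stops between 17.4 and 17.8 kb before the TSS in all 6 libraries, and H3K27ac is found only on the ADAMTS15 side of that edge.

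The procollagen N-proteinases ADAMTS2, ADAMTS3 and ADAMTS14, which trim fibrillar procollagens, all had H3K4me3 in 6 lists and H3K27ac in none. H3K27me3 covered almost the whole ADAMTS14 window of 10298 bp, with 9459 and 10298 bp in the siControl pair, 9668 and 10298 bp in the siControl+TGFβ pair, and 3679 and 10298 bp in the siPHF13+TGFβ pair. H3K4me3 at ADAMTS14 covered 1010 and 1188 bp, then 1437 and 1338 bp, then 871 and 1207 bp, and there the siControl+TGFβ libraries were above the 4 others. At ADAMTS2 the H3K27me3 values were 2372 and 9269 bp, then 7906 and 8945 bp, then 358 and 7033 bp. At ADAMTS3 they were at most 1284 bp.

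Among the other ADAMTS genes, ADAMTS10 and ADAMTS6, which act on fibrillin-rich microfibrils, had all 3 marks. H3K27ac at ADAMTS10 lay mostly on a TSS (chr19:8674158-8675853) and in its window covered 351 and 539 bp in the siControl pair, 1851 and 1036 bp in the siControl+TGFβ pair, and 0 and 1696 bp in the siPHF13+TGFβ pair. H3K4me3 at ADAMTS10 covered 3055 and 3603 bp, then 3480 and 3142 bp, then 2015 and 2927 bp. Its siPHF13+TGFβ libraries were thus the lowest for H3K4me3.

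At ADAMTS6, H3K27ac covered 0 and 243 bp, then 951 and 374 bp, then 0 and 1069 bp, and H3K4me3 covered 1928 and 1988 bp, then 2082 and 2231 bp, then 1546 and 2110 bp. Both marks were higher in both siControl+TGFβ than in both siControl libraries. At ADAMTS13, which cleaves von Willebrand factor, the H3K27ac values of 722 and 1702 bp, then 2265 and 1749 bp, then 0 and 2127 bp came from peaks on the TSSs of REXO4 and CACFD1, at least 2939 bp from an ADAMTS13 TSS.

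ADAMTS18 was acetylated without H3K4me3. H3K27ac covered 0 bp in both siControl libraries, 1721 and 376 bp in the siControl+TGFβ pair, and 0 and 154 bp in the siPHF13+TGFβ pair, and both siControl+TGFβ libraries were thus above the 4 others. Most of it was in a region (chr16:77322487-77323874) on the start of a short annotated transcript inside the gene, 145.1 kb from the canonical TSS. ADAMTS17 had H3K4me3 over 1283 and 1639 bp, then 1642 and 1600 bp, then 1252 and 1407 bp, with H3K27me3 over 5137 and 12870 bp, then 10209 and 11593 bp, then 2036 and 9888 bp. ADAMTS7, ADAMTS16 and ADAMTS19 also combined both marks without H3K27ac, and ADAMTS12, a protease of cartilage oligomeric matrix protein, had H3K27me3 alone, at 0 to 4096 bp.

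The inhibitors split as the enzymes did. TIMP2, which blocks MMP2 and also helps MMP14 to activate it, had H3K4me3 over 1915 and 2046 bp in the siControl pair, 2256 and 2191 bp in the siControl+TGFβ pair, and 1830 and 2027 bp in the siPHF13+TGFβ pair. H3K27ac on its TSS (chr17:76921034-76922080) covered 0 and 221 bp, then 1040 and 583 bp, then 0 and 800 bp. For both marks siControl+TGFβ was above siControl in every library.

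TIMP3, a matrix-bound inhibitor that also blocks ADAMTS enzymes, had no H3K27ac. H3K27me3 at TIMP3 covered 780 and 3950 bp in the siControl pair, 3597 and 3060 bp in the siControl+TGFβ pair, and 0 and 2161 bp in the siPHF13+TGFβ pair, the latter both below both siControl+TGFβ libraries. H3K4me3 there covered 0 and 1004 bp, then 1178 and 431 bp, then 0 and 488 bp. TIMP4, whose window also holds a TSS of SYN2, had none of the marks.

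In the chromosome 11 MMP cluster, 9 MMP genes and no other protein-coding gene lie within 435223 bp (chromosome 11, 102391239 to 102826461), and a boundary ran through it. H3K27me3 covered 20.4% and 50.3% of the stretch from MMP27 to MMP13 in the siControl pair, 18.9% and 32.5% in the siControl+TGFβ pair and 13.8% and 36.2% in the siPHF13+TGFβ pair, which is 3.5 to 8.78 times the share of the genome that the same lists covered. Over MMP7 and MMP20, at the other end, it covered 0% in all 6 libraries. The first H3K27me3 peak lay 152.1 to 162.2 kb from the 3′ end of MMP7, in the 66154 bp gap between MMP20 and MMP27. Where to divide the cluster was chosen after the values were seen.

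H3K27ac had the opposite distribution. It covered 2.72% and 5.37% of the MMP7 and MMP20 stretch in the siControl pair, 9.12% and 6.42% in the siControl+TGFβ pair, and 0.183% and 8.12% in the siPHF13+TGFβ pair, which is 3.0 to 10.6 times the genome share of those lists. From MMP27 to MMP13 it covered at most 0.0946%, in the form of 1 peak in 2 of the libraries and none in the other 4.

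The acetylated sites were on no annotated TSS of MMP20, the enamel protease enamelysin, but in its introns and between it and MMP7. The site with the mark in all 6 lists (chr11:102469162-102471732, 24.3 kb from the canonical MMP20 TSS and intronic) covered 2097 and 2091 bp in the siControl pair, 2508 and 2380 bp in the siControl+TGFβ pair, and 192 and 2483 bp in the siPHF13+TGFβ pair. A site between both genes (chr11:102422214-102424728, 20.7 kb upstream of the MMP7 TSS) covered 593 and 1929 bp, then 2515 and 1878 bp, then 0 and 2049 bp. Another intronic site (chr11:102450076-102451812) covered 159 and 763 bp, then 1666 and 1075 bp, then 0 and 1608 bp, so that there both siControl+TGFβ libraries were above both siControl libraries.

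Within the MMP20 window this and 2 smaller intronic sites gave 159 and 763 bp, then 2249 and 1409 bp, then 0 and 1665 bp of H3K27ac. The 250 bases around the summit of the intronic site in siControl+TGFβ replicate 1 (chr11:102450942-102451191, plus strand, from GRCh37) are shown because they hold an AP-1 motif (capitals) in an acetylated site, as 2 of the 13 H3K27ac summits of both chromosome 11 loci did (15.4%), against 7.01% of all 36104 in that list.
MMP20 intronic site: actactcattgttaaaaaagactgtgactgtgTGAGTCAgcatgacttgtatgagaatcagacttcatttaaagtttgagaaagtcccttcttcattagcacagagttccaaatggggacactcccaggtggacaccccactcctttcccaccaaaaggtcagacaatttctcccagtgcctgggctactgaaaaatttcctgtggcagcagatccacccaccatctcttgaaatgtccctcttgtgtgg

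H3K4me3 was also found inside the H3K27me3-covered stretch, away from every TSS of the cluster. Sites at 12.1 kb from the MMP10 TSS, 9.4 kb from that of MMP1 and 11.3 kb from that of MMP3 had H3K4me3 in all 6 lists. The one nearest MMP1 (chr11:102678250-102679410) covered 663 and 998 bp in the siControl pair, 1010 and 1003 bp in the siControl+TGFβ pair, and 664 and 996 bp in the siPHF13+TGFβ pair. None of these 3 sites had H3K27ac.

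**Figure D4:**
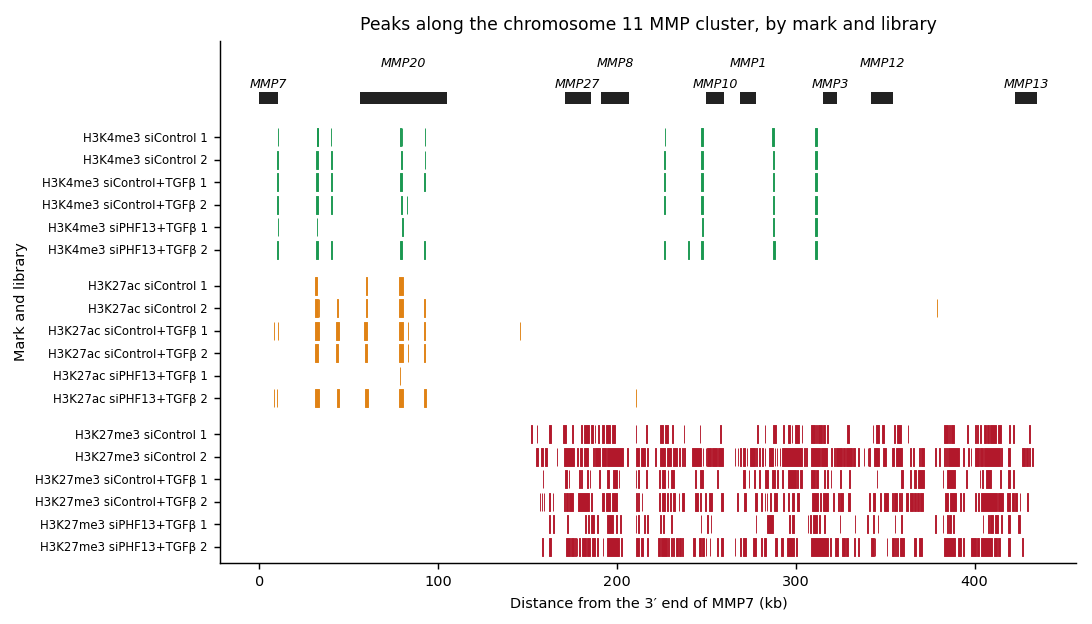
Peaks of the 3 marks in each of the 18 libraries by distance from the 3′ end of MMP7 (kb), with the 9 gene bodies as black bars and each coloured bar standing for 1 peak. H3K27me3 begins between 152.1 and 162.2 kb in every library, and H3K27ac lies almost wholly on the side of MMP7 and MMP20.

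To determine which members responded to TGFβ, siControl+TGFβ was compared with siControl. Tested with limma on log2 (covered bp + 100) over all genes with a peak in at least 2 of 6 lists, 0 of the 30 members tested for H3K4me3 passed an adjusted p under 0.05, where 0.122% of all genes did, and 0 of 16 for H3K27ac and 0 of 35 for H3K27me3, where 0.0% did. At an unadjusted p under 0.05 there were 0, 1 and 1 members, with 483 higher and 7 lower genes over the whole H3K4me3 table, 96 and 0 over H3K27ac, and 31 and 130 over H3K27me3. An exact permutation test of 2 libraries against 2 cannot go below p = 0.333. What follows therefore counts members whose groups did not overlap. The median log2 difference over all genes tested was 0.13 for H3K4me3, 0.60 for H3K27ac and 0.09 for H3K27me3, and over the members tested 0.19, 1.66 and 0.07.

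H3K27ac was higher in both siControl+TGFβ than in both siControl libraries at 12 members, ADAMTS1, ADAMTS4, ADAMTS6, ADAMTS10, ADAMTS13, ADAMTS15, ADAMTS18, MMP2, MMP14, MMP20, MMP25 and TIMP2, and lower at 0. That is 27.3% of the members, against 35.5% of all genes that were higher by the same rule and 0.0496% that were lower. Only genes with the mark can be higher, and 16 of 44 members had it in at least 2 lists, against 12727 of all 20162 genes, so the shares also follow how often the mark was present. With every list cut to the 6004 strongest peaks, the length of the shortest, the count was 1 (ADAMTS4). On the log2 scale with 100 bp added, the difference was 2.21 for MMP2, 2.24 for MMP14, 2.30 for TIMP2 and 2.65 for ADAMTS15, with limma adjusted p = 0.984 for each of the 16 members tested. ADAMTS1 and ADAMTS18 went from no peak in either siControl library to a peak in both siControl+TGFβ libraries, as 1.77% of all genes did, and 0 members went the other way (0.00992%). Over the 27 members with H3K4me3 in all 6 lists the median difference was 0.50, against 0.51 over the 14788 genes of that kind.

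**Figure D5:**
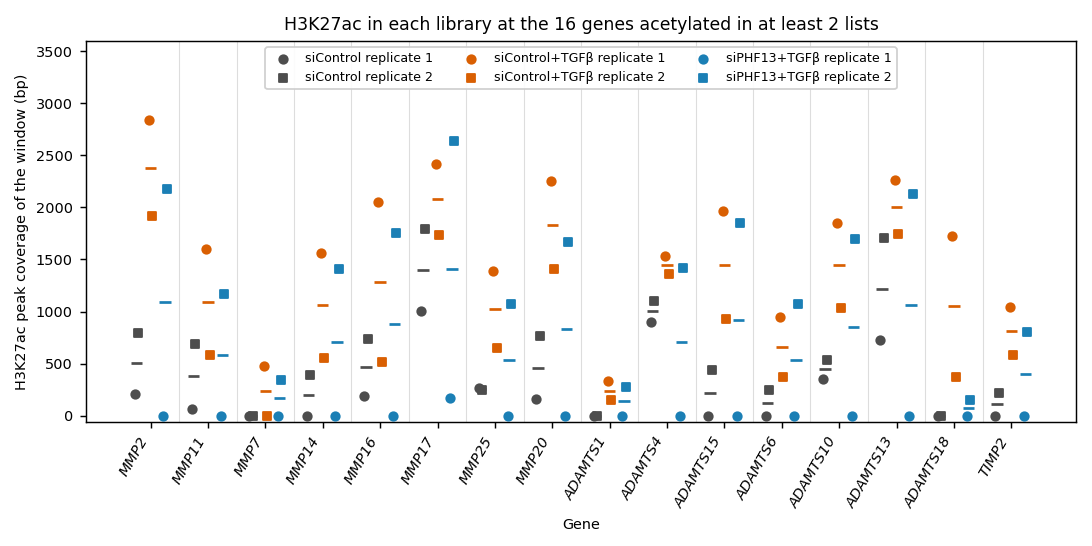
H3K27ac coverage of the window (bp, vertical axis) at the 16 genes with the mark in at least 2 lists, with circles for replicate 1, squares for replicate 2 and short lines for the mean of the 2 libraries of a group. At 12 of the genes both siControl+TGFβ libraries lie above both siControl libraries, and siPHF13+TGFβ replicate 1 is at 0 bp for all but MMP17.

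H3K4me3 was higher in both siControl+TGFβ than in both siControl libraries at 12 members as well, ADAMTS6, ADAMTS9, ADAMTS13, ADAMTS14, ADAMTS15, MMP7, MMP11, MMP14, MMP15, MMP20, MMP25 and TIMP2, and lower at 0, against 36.7% higher and 1.58% lower over all genes. The difference was 0.16 for MMP14 and 0.57 for ADAMTS9 on the log2 scale. With libraries centred on their median the counts were 9 higher and 3 lower. Leaving out 1 library makes the rule easier, here and below, so each count can only stay or rise. The share of all genes under that easier rule was not computed. Without siControl replicate 1 the counts were 13 and 8, without siControl replicate 2 they were 28 and 0, and without siControl+TGFβ replicate 2 they were 20 and 0. Members higher for both H3K27ac and H3K4me3 were MMP14, MMP20, MMP25, TIMP2, ADAMTS6, ADAMTS13 and ADAMTS15. H3K27me3 was higher at MMP24 and lower at ADAMTS6, MMP13 and MMP27, against 2.56% and 3.07% of all genes. Under the easier rule with 1 library left out, the balance of higher and lower depended on the library. The counts were 1 higher and 28 lower without siControl replicate 1, and 23 higher and 4 lower without siControl replicate 2. They were 3 and 4 without siControl+TGFβ replicate 1, and 4 and 8 without siControl+TGFβ replicate 2. Centred, they were 5 and 2. Going from a peak in both libraries to a peak in neither was seen for H3K27me3 at MMP13 (0.813% of all genes) and for H3K4me3 at 0 members (0.00992%), and the opposite for H3K4me3 at MMP20 (0.327%) and for H3K27me3 at 0 (0.268%). The H3K4me3 in the MMP20 window was 41 and 264 bp in the siControl+TGFβ pair, from different sites. The 41 bp were the edge of a site reaching past the window (chr11:102483526-102484086). That site covered 159 and 426 bp in the siControl pair and 546 and 0 bp in the siControl+TGFβ pair. The 264 bp were a peak found in 1 list, so no single site at MMP20 was gained in both libraries. At MMP27, H3K27me3 covered 5387 and 5694 bp in siControl and 1690 and 4800 bp in siControl+TGFβ.

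To determine what PHF13 depletion did under TGFβ, siPHF13+TGFβ was compared with siControl+TGFβ. By limma, 0 of the 30, 16 and 35 members tested for H3K4me3, H3K27ac and H3K27me3 passed, where 0.134%, 0.0% and 0.0% of all genes did. At an unadjusted p under 0.05 there were 2, 0 and 1 members, with 2 higher and 1424 lower genes over the whole H3K4me3 table, 0 and 9 over H3K27ac, and 11 and 181 over H3K27me3. The members at that level were MMP24 and ADAMTS5 for H3K4me3, with limma adjusted p = 0.408 each, and MMP17 for H3K27me3, with limma adjusted p = 0.829. The median log2 difference over all genes tested was -0.23 for H3K4me3, -1.41 for H3K27ac and -0.94 for H3K27me3, and over the members tested -0.35, -1.61 and -0.76.

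H3K4me3 was lower in both siPHF13+TGFβ than in both siControl+TGFβ libraries at 13 members and higher at 0, against 48.0% and 0.208% of all genes. The 13 were ADAMTS1, ADAMTS4, ADAMTS5, ADAMTS10, ADAMTS13, ADAMTS14, ADAMTS17, MMP11, MMP15, MMP17, MMP24, MMP25 and TIMP2. Centred libraries gave 3 higher and 8 lower, without siPHF13+TGFβ replicate 1 there were 5 higher and 13 lower, without siPHF13+TGFβ replicate 2 there were 0 and 30, and without siControl+TGFβ replicate 2 there were 0 and 22. The log2 difference was -0.73 for ADAMTS1 and -0.35 for MMP17. Over the 27 members with H3K4me3 in all 6 lists the median was -0.29, against -0.22 over the 14788 genes of that kind.

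H3K27ac was lower in both siPHF13+TGFβ libraries at ADAMTS18 alone and higher at none, against 6.35% and 0.0149% of all genes. The libraries of siPHF13+TGFβ disagreed, since replicate 1 had the mark at 1 member (MMP17) and replicate 2 at 17, more than any other library. Without replicate 1, 3 members were higher and 1 lower than both siControl+TGFβ libraries, and without replicate 2, 15 were lower, of which 12 passed limma in a table where 10059 of 12238 genes did. Without siControl+TGFβ replicate 2, 14 were lower. A direction for H3K27ac at these genes thus rested on which of the libraries was used. ADAMTS18, at 0 and 154 bp against 1721 and 376 bp, was no longer lower with the gene start alone, with a -log10 q of at least 3 or with lists of equal length.

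H3K27me3 was lower in both siPHF13+TGFβ libraries at 13 members and higher at 0, which is 29.5% of the members against 12.8% and 0.476% of all genes. Only genes with the mark can be lower, and 35 of 44 members had it in at least 2 lists, against 8593 of all 20162 genes, so the shares also follow how often the mark was present. A gene can be lower only with the mark in both siControl+TGFβ libraries, so every lower gene is among these. The counts were thus 13 of 35 such members, against 2572 of 8593 such genes. Among genes with H3K4me3 in all 6 lists, which need not have H3K27me3, the count was 9 of 27 members, against 11.4%. The 13 were MMP17, MMP19, MMP21, MMP24, MMP25, TIMP3, ADAMTS2, ADAMTS4, ADAMTS7, ADAMTS9, ADAMTS10, ADAMTS16 and ADAMTS17. With peaks limited to a -log10 q of at least 3 the count was 2, centred libraries gave 8 lower and 4 higher, and without siPHF13+TGFβ replicate 1 there were 13 lower and 9 higher. The H3K27me3 list of that replicate held 59573 peaks against 107730 in replicate 2 and 118061 and 111490 in siControl+TGFβ, and with lists of equal length there were 9 lower, 6 of them among the 13, and 2 higher. A peak in both siControl+TGFβ libraries and in neither siPHF13+TGFβ library was found for H3K27me3 at MMP17 (1.7% of all genes), for H3K4me3 at 0 members (0.67%) and for H3K27ac at 0 (0.293%). At MMP17 the peaks of the siControl+TGFβ libraries lay at different sites. The opposite was found at 0 members for H3K27me3 (0.149%), H3K4me3 (0.00496%) and H3K27ac (0.00496%).

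For comparison, 26 other genes of matrix turnover were counted in the same way, among them plasminogen activators, ADAM proteases, cathepsins and matrix proteoglycans. H3K27ac was present in at least 4 lists at 17 of them and H3K27me3 at 11, against 13 and 32 of the 44 members. Over all coding genes the shares were 57.3% and 35.5%. By limma 0 of them passed. H3K27ac was higher in both siControl+TGFβ than in both siControl libraries at 10 of the 26 and lower at 0. Of all coding genes, 35.5% were higher and 0.0496% lower, so the share among the 26 was close to that of genes at large.

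At the sheddase ADAM9 the mark covered 293 and 723 bp in the siControl pair, 2725 and 1039 bp in the siControl+TGFβ pair, and 0 and 2762 bp in the siPHF13+TGFβ pair. ADAM8, ADAM12, FURIN, which activates MMP14 by cleaving its propeptide, and the urokinase receptor PLAUR were also among the 10, and at ADAM12 the mark was listed at 0 bp in both siControl libraries and covered 1275 and 663 bp in siControl+TGFβ. TIMP1, the remaining inhibitor of the family, was named after its values were seen. It had H3K4me3 over 1253 and 1122 bp, then 1784 and 1563 bp, then 753 and 1397 bp, H3K27ac in 5 lists and no H3K27me3.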

How the data were processed

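Peak lists of 18 libraries were used, 1 per library, and the 6 input samples were not analysed here. Per the study's methods and the submitters' processing notes, the authors trimmed reads with Trim Galore 0.4.1, aligned them to hg19 with Bowtie2 2.4.1, removed duplicates with Picard and called peaks in each library against input with MACS2 2.2.7.1, as narrow peaks for H3K4me3 and H3K27ac and broad peaks for H3K27me3. The narrow lists reach down to a -log10 q of 1.3, below the stated cut-off, which corresponds to 3. The deposited lists also hold the score, the fold enrichment and the -log10 p and q values that the authors' MACS2 runs gave each peak. Covered bp depends on how many peaks a library yielded, so it moves with depth and enrichment, and the lists give neither.

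For each of 20162 protein-coding genes (GENCODE models on GRCh37) the bases under peaks were counted, overlapping peaks once, in the union of windows of 5 kb on each side of all TSSs. Groups came from the sample labels. Differences were tested with limma 3.58.1 (R 4.3.3) on log2 (bp + 100), with the 3 groups of a mark in 1 fit over genes with a peak in at least 2 lists and Benjamini-Hochberg adjustment over all genes tested. A member was called not overlapping where both libraries of a group lay above or below both of the other. The named genes were the gelatinases, MMP14, MMP17, TIMP2 and TIMP3, the members that did not overlap, those with both H3K4me3 and H3K27me3, and the chromosome 11 cluster. Members and lists were chosen with earlier results of these data known. Interval counting was tested on simulated data with bedtools 2.31.1. Sequences came from the GRCh37 genome, and some genes and sequences are not reported here.

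Alternatives were 2.5 kb windows, the gene start alone, a -log10 q of at least 3, lists of equal length, at least 200 bp covered in the window, other pseudocounts and filters, centred libraries, the replicate number as a block, the 4 libraries of a comparison alone and leaving out each library. Assigning bases to the nearest TSS was chosen after seeing the data.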

Additional observations from a re-analysis of the deposited data

How the results depend on the processing

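By limma, 19 genes differed in H3K4me3 between siControl+TGFβ and siControl. There were 4 with lists of equal length, 48 with a pseudocount of 10 bp, 0 with one of 1000 bp, 0 with a peak in at least 4 lists, 4 with the 4 libraries alone and 0 without any 1 library. Between siPHF13+TGFβ and siControl+TGFβ, 21 genes differed, and in the same order of settings there were 4, 55, 0, 0 and 31, and 0 without any 1 library. For H3K27ac the latter comparison gave 0 genes, and 0 to 10059 when 1 library was left out, the highest without siPHF13+TGFβ replicate 2. No member passed for H3K4me3 in any of these fits.

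Across genes, the replicate differences of siControl and siPHF13+TGFβ correlated at 0.506, 0.258 and 0.173 for H3K4me3, H3K27ac and H3K27me3, while the other pairs of groups ranged from -0.411 to 0.011, so the numbers were not taken to pair the samples. With the replicate block, limma called 0 genes for H3K4me3 in each comparison.

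Of members that did not overlap for H3K4me3, there were 12 with TGFβ (15 to 28 without 1 library) and 13 with PHF13 depletion (16 to 30). For H3K27ac with TGFβ there were 12, and 1 with lists of equal length. For H3K27ac with PHF13 depletion there was 1, and 2 with 2.5 kb windows, 0 with the gene start alone, 0 with a -log10 q of at least 3, 3 with centred libraries and 1 to 15 without 1 library. Without siPHF13+TGFβ replicate 1 there were 4, most of them higher. For H3K27me3 with TGFβ there were 4, and 0 with a -log10 q of at least 3 and 7 to 29 without 1 library. The balance turned from lower to higher with centred libraries (7) and without siControl replicate 2 (27). For H3K27me3 with PHF13 depletion there were 13, and 2 with a -log10 q of at least 3 and 20 to 27 without 1 library. With 1 library left out the rule is easier and these counts can only stay or rise, so a rise there is no measure of robustness. The cause of the other shifts was not tested. For 29 log2 differences, each of 1 member, mark and comparison, 377 values were recomputed, of which 318 moved by less than 1 pooled SD and 59 by more.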
